A study of Caenorhabditis elegans with 16 samples.

Results

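The comparison concerned 6 of the 16 small RNA libraries of the series: 3 made at F20, the twentieth filial generation after the hrde-1 gene of a mutant strain had been repaired, and 3 made a few generations after repair. Each F20 library was paired with the early library of the same genetic background. The F20 libraries were hrde-1(+R) in an otherwise wild-type background, set-32(ok1457); hrde-1(+R) and set-32(red11); hrde-1(+R). Their early counterparts were taken at F5, F8 and F5, so the set-32(ok1457) pair spanned fewer generations than the others. Values of 3 libraries are given below in the order wild type, ok1457 and then red11. All 6 carried hrde-1 restored from the tm1200 allele, and all came from young adult hermaphrodites. The hrde-1(tm1200) mutants and the never mutant animals (N2 and the set-32 single mutants) of the same backgrounds were used to choose loci and to set levels beside those of the repaired animals. Repaired met-2(n4256) set-25(n5021) animals, at F20 and F5, entered no main test because the F5 column total was high. The series title asks what SET-32 does when nuclear RNAi silencing is set up anew over generations, and the F20 to early comparison asks whether small RNAs went on changing after the first generations with HRDE-1.

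HRDE-1, an Argonaute protein, works in germline nuclei. It carries secondary siRNAs, which RNA-dependent RNA polymerases make from target transcripts, into the nucleus, where transcription is dampened and histone H3 is methylated at the matching locus. The siRNAs pass to the progeny, and silencing can therefore build up or fade over generations. SET-32 is a SET-domain protein that acts in this pathway.

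The libraries were small and close in depth. In units of 1000 reads within the 1000 bp genome bins of the deposited table, the F20 libraries held 306, 209.5 and 317 and the early libraries 272, 225 and 384. Per bin, 1 read amounted to 2.03 to 3.25 RPKM. The RPKM of a library summed to 74.6, 68.1 and 72.7% of a per-million total at F20 and to 74.99, 67.7 and 77.9% in the early libraries, so no pair differed by a large scaling step. The mutant and never mutant libraries of the set-32 backgrounds reached 92.02 to 96.7%, and their levels are set beside those of the repaired animals without a test. Small RNAs over hrde-1 averaged 84.9, 56.1 and 77.1 RPKM per bin at F20 and 87.5, 77.8 and 98.2 in the early libraries, against 49.7, 77.96 and 68.6 in the mutants, so the gene's own signal does not check the label of the set-32(ok1457) libraries.

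Small RNAs over the genome as a whole did not differ between F20 and early repaired animals in a way shared by the 3 backgrounds. Of 23878 bins tested, 0 were called higher and 0 lower (0.0% in each direction) by limma with Benjamini-Hochberg adjustment. The smallest adjusted p by limma was 0.953. Without adjustment, 383 bins were higher (1.6%) and 781 lower (3.27%) at p under 0.05. The median difference was -0.03 on the log2(RPKM + 5) scale, and the median size of a difference was 0.22. The median half-width of the 95% confidence interval, before adjustment, was 0.74, from 0.82 in bins at 5 to 10 RPKM to 0.38 in bins of at least 100 RPKM. Shared changes of this size and larger could go uncalled after adjustment at this depth. The eat-16 bin (I:9724001-9725000), at -1.52, had an adjusted p of 0.953 by limma. With 1 library for each genotype and generation, these p-values measure the spread between backgrounds, not between cultures of a strain. By the same kind of fit, loss of hrde-1 changed 258 bins to lower and 172 to higher levels in mutant against never mutant libraries of 4 backgrounds (0.976 and 0.651% of 26433). In the 3 backgrounds used here it changed 146 and 107 (0.559 and 0.41% of 26125).

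The pairs had little in common. Over all tested bins the F20 minus early differences had a Pearson r of -0.01 between wild type and set-32(ok1457), -0.01 between wild type and set-32(red11), and 0.03 between the set-32 alleles. In the 2689 bins of at least 50 RPKM these were -0.06, -0.01 and 0.12. The levels themselves were closer, with an r of 0.86, 0.82 and 0.87 between F20 and early within a background and of 0.70 to 0.82 between backgrounds of one generation. Bins are neighbours and share libraries, so these values describe the libraries only. In bins at 5 to 10 RPKM the SD of the difference was 0.69, 0.76 and 0.64, and in bins of at least 100 RPKM it was 0.30, 0.39 and 0.42. In low bins the set-32(ok1457) pair was thus the most spread, and it also had the fewest reads. Set-32 animals were set against wild type in one contrast, whose wild-type arm is a single pair and whose error rests on how far the ok1457 and red11 pairs lie apart. It called 0 bins higher and 0 lower of 23878 (limma, smallest adjusted p = 0.99, 441 higher and 635 lower without adjustment), and with 1 wild-type pair this says little about SET-32.

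**Figure D1:**
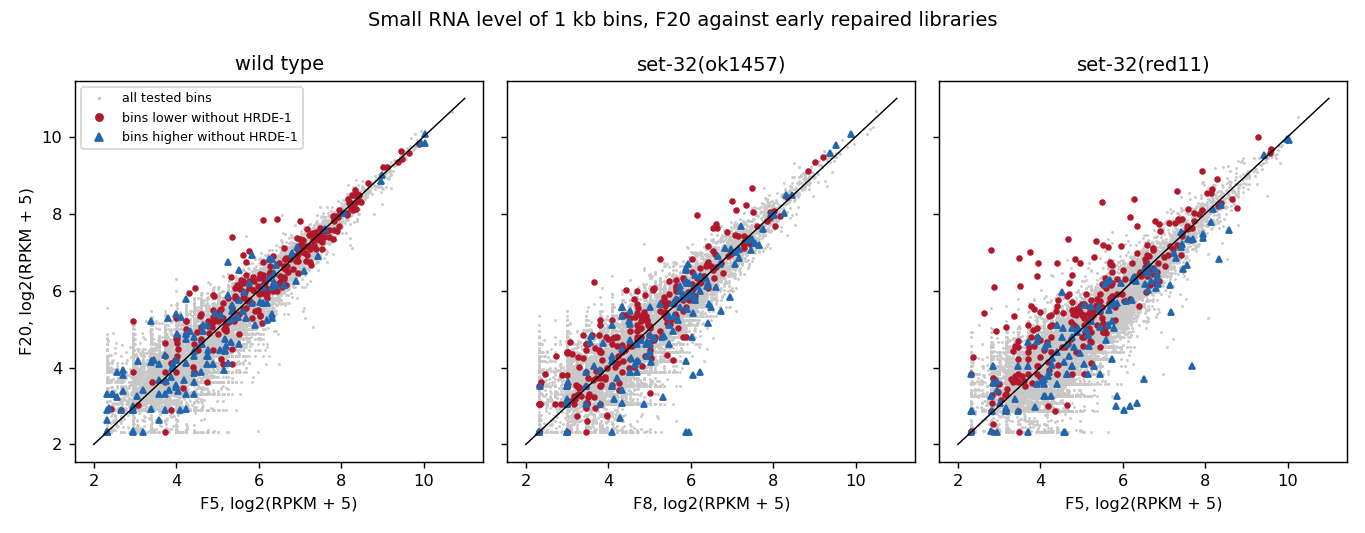
RPKM + 5 in F20 (vertical) against early (horizontal) libraries on log2 axes, 1 panel per background and 1 point per tested bin; red circles are bins that had less small RNA without HRDE-1 and blue triangles bins that had more. Most points lie along the diagonal, and in the set-32(red11) panel 13 circles lie at least 2 above it and 9 triangles at least 2 below it, on the log2 scale.

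Loci whose small RNAs depend on HRDE-1 were examined as 2 lists. They were chosen from the mutant and never mutant libraries, which are not among the F20 and early pairs. The choice was made after the data had been seen. Of the 258 bins with less small RNA without HRDE-1, lying in 167 regions, 253 passed the filter on low values in the repaired libraries. At F20 72 of these (28.5%) were higher than in the early library in all 3 backgrounds, against 10.7% of all tested bins, and 11 (4.35%) were lower in all 3, against 14% of all tested bins. Their median difference was 0.18, with 0.06, 0.15 and 0.28 in the single backgrounds, beside -0.03 over all tested bins. No bin of the list was called. Without adjustment, 36 had a p under 0.05 and a higher level, and 2 a lower one. The met-2 set-25 pair, left out of the fit, had a median of -0.08 over these bins.

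The 172 bins with more small RNA without HRDE-1, in 102 regions, had fewer bins that were higher in all 3 backgrounds. Of the 135 that passed the filter, 25 (18.5%) were lower at F20 in all 3 backgrounds, near the 14% of all tested bins, and 3 (2.22%) were higher, against 10.7%. Their median difference was -0.14, with -0.01, -0.10 and -0.27 in the single backgrounds, and without adjustment 10 were lower and 2 higher at p under 0.05. The set-32(red11) pair thus had the largest median in both lists and the wild-type pair the smallest. Over all tested bins the medians were -0.01, 0.03 and -0.10. In wild type the second list thus lay at the median of all tested bins, and the set-32(red11) pair was lower at F20 over all tested bins too.

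Levels in the other states are set beside those of the repaired animals, on unlike footings. Intestine markers summed to 212 and 264 RPKM in the mutants of set-32(ok1457) and set-32(red11), and to 218 and 219 RPKM in never mutant animals. In the repaired libraries of these backgrounds they summed to 7587 and 8446 RPKM at F20 and to 9131 and 5370 RPKM early. The wild-type states differ in library name prefix. How far this shifted the levels was not tested. Over the bins with less small RNA without HRDE-1, the median level in wild type was 14.1 RPKM in the mutant, 63.5 RPKM at F5 and 69.6 RPKM at F20, beside 77.7 in never mutant animals. In set-32(ok1457) it was 34.1 RPKM in the mutant, 21.1 RPKM at F8 and 23.3 RPKM at F20, beside 115 in never mutant animals. For set-32(red11) it was 13.6 RPKM in the mutant, 28.99 RPKM at F5 and 41.7 RPKM at F20, beside 97.3 in never mutant animals. By these medians wild type was near the never mutant level already at F5. The set-32(red11) medians lay between those of its mutant and never mutant animals and were higher at F20. Those of set-32(ok1457) lay below its own mutant at both times. Given the unlike libraries, these positions are not a measure of recovery. The mutant and never mutant values were used to choose the bins and are a description.

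Over the bins with more small RNA without HRDE-1, wild type had a median of 56.1 RPKM in the mutant, 11.14 RPKM at F5 and 11.5 RPKM at F20, beside 8.57 in never mutant animals. set-32(ok1457) had 72.2 in the mutant, 21.2 at F8 and 19.5 at F20, beside 8.58. set-32(red11) had 81.1 RPKM in the mutant, 20.3 RPKM at F5 and 11.68 RPKM at F20, beside 4.89. In every background the early level of these bins was already far below that of the mutant.

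**Figure D2:**
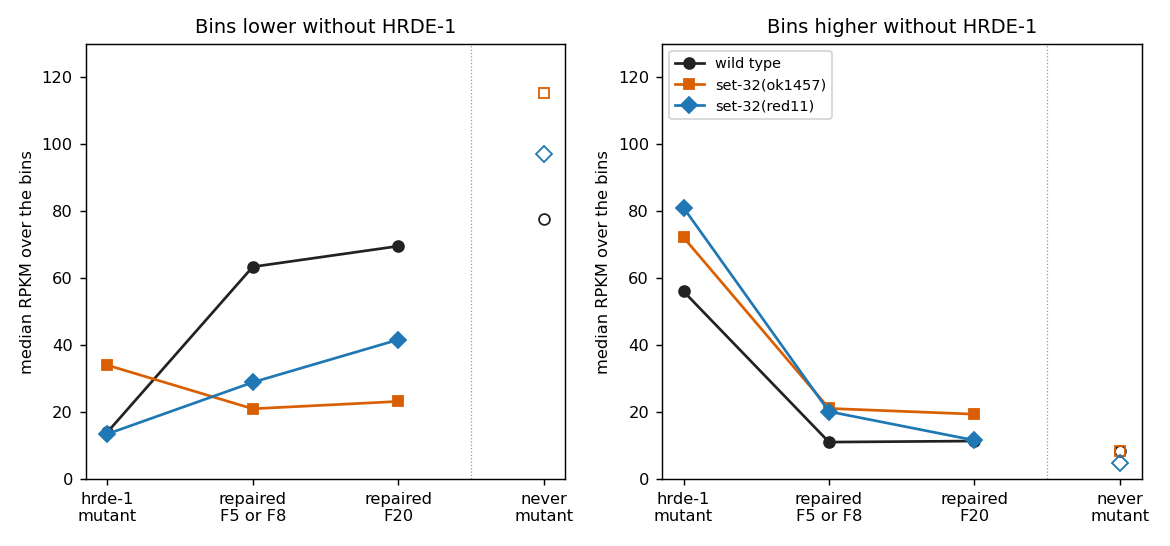
Median RPKM over the bins with less (left) and more (right) small RNA without HRDE-1, in hrde-1 mutants, early repaired, F20 repaired and never mutant animals of each background. The set-32(red11) medians move away from the mutant between early and F20, to 41.7 and 11.68 RPKM, and the set-32(ok1457) median of the first list stays at 21.1 and 23.3 RPKM.

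Summed over each list, the level in bins with less small RNA without HRDE-1 was 29395, 14621 and 21723 RPKM at F20 and 28196, 11867 and 16326 RPKM in the early libraries. The F20 library was the higher in every pair, by 0.06, 0.30 and 0.41 on the log2 scale (mean 0.26 ± 0.18, SD, n = 3 pairs). An exact two-sided sign-flip test over 3 pairs gave p = 0.25, the smallest it can give. The sum over the other list was 8185, 9494 and 8590 RPKM at F20 and 8384, 9983 and 10848 RPKM in the early libraries, lower at F20 in every pair by -0.04, -0.07 and -0.34 (exact p = 0.25). Within the first list, the 46 bins that the deposited table marks GRH, an abbreviation the labels do not expand, had medians of 0.05, 0.24 and 0.61, and 17 of 46 (37.0%) were higher at F20 in all 3 backgrounds. All 189 tested GRH bins together had a median of 0.08, with 42 (22.2%) higher and 21 (11.11%) lower in all 3, and the 177 tested GRTS bins had 0.04, with 29 (16.38%) higher and 19 (10.7%) lower. The libraries behind these marks are not named in the sources used here, so they are not independent evidence of a direction.

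Large changes were rare, and in set-32(red11) many lay at loci that depend on HRDE-1. A difference of at least 2 on the log2 scale, in either direction, was found in 84 bins (0.352%) in wild type, 188 (0.787%) in set-32(ok1457) and 100 (0.419%) in set-32(red11). Of these, 2, 6 and 22 were in the 2 lists. The lists held 253 and 135 of the 23878 tested bins, and adjacent bins among the 22 are not independent of each other. Of the 22 in set-32(red11), 13 were higher, all among the bins with less small RNA without HRDE-1, and 9 lower, all among the bins with more. All 22 thus went against the direction in which loss of hrde-1 changed their list. The same held for the 2 in wild type and the 6 in set-32(ok1457), of which 5 were lower. These bins were picked by their size in a single pair, so their values are a description with no test.

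Among the 13 were 2 adjacent bins over sosi-1 at the eri-6 locus. The long noncoding RNA gene linc-30 (I:2048001-2049000) had 62.0, 8.94 and 63.2 RPKM at F20, against 37.8, 3.01 and 2.32 RPKM in the early libraries. The neighbouring gene Y20F4.8 (I:2049001-2050000) had 114, 36.02 and 156 RPKM at F20, against 117, 15.1 and 20.4 RPKM in the early libraries. At both, set-32(red11) animals had levels like those of set-32(ok1457) in the early libraries and like those of wild type, or above, at F20. The never mutant level was 62.7, 112 and 120 RPKM for linc-30 and 153, 201 and 159 RPKM for Y20F4.8.

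A like pattern was seen elsewhere on chromosome I at gpx-8 (I:10782001-10783000), named as a glutathione peroxidase gene, which had 242, 65.1 and 327 RPKM at F20, against 235, 45.2 and 73.0 RPKM in the early libraries. Its neighbour F55A3.8 (I:10781001-10782000) had 23.3, 6.6 and 109.85 RPKM at F20, against 11.2, 0.11 and 6.16 RPKM in the early libraries. The set-32(red11) F20 values of both genes were above the never mutant values of that background, 267 and 74.6 RPKM. A bin of chromosome II without annotated exons of named genes (II:2160001-2161000) had 109, 23.8 and 123 RPKM at F20, against 95.2, 7.28 and 8.44 RPKM in the early libraries. In wild type this bin and the gpx-8 bin differed by 0.19 and 0.04 on the log2 scale between the generations.

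At T16G12.4 (III:10058001-10059000) the set-32(red11) pair alone was higher at F20. The libraries had 103, 61.8 and 314 RPKM at F20, against 146, 81.4 and 40.5 RPKM in the early libraries, and the never mutant levels were 118.95, 354 and 367 RPKM. Reads of repeated copies cannot be assigned to 1 copy in this gene cluster. Y102A5C.36 (V:16927001-16928000) had 100.1, 9.78 and 101 RPKM at F20, against 85.6, 9.04 and 16.21 RPKM in the early libraries. Here set-32(ok1457) was at about 3 reads in both generations, while its never mutant level was 220.2 RPKM.

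The 9 bins that were lower in set-32(red11) included 5 in a stretch of chromosome V without annotated exons of named genes (V:8476001-8488000). In V:8477001-8478000 the libraries had 119.5, 145 and 11.56 RPKM at F20, against 108, 185 and 201 RPKM in the early libraries. The mutants had 296, 260 and 287 RPKM and the never mutant animals 89.5, 87.9 and 27.7 RPKM. set-32(red11) animals thus kept most of the mutant level at F5 and were below both other backgrounds at F20. The first bin, V:8476001-8477000, and V:8486001-8487000 had like values at F20, 37.5, 44.98 and 3.05 RPKM and 34.8, 42.4 and 3.48 RPKM. The last bin, V:8487001-8488000, had 29.7, 37.7 and 3.05 RPKM at F20, against 20.01, 61.02 and 52.2 RPKM in the early libraries. How reads with several matches were placed is not given in the sources used here, so these bins may count the same reads. srg-65 (V:5484001-5485000), a gene named as a chemoreceptor of the srg family, had 3.07, 22.8 and 2.49 RPKM at F20, against 2.8, 34.7 and 60.01 RPKM in the early libraries. The set-32(red11) mutant had 15.7 RPKM there, between the early and F20 values of that background.

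The bins with the smallest unadjusted p that differed one way in all 3 pairs, 8 in each direction, are given as not called, since each had an adjusted p of 0.953 by limma. Of the 8 higher ones, a pair of adjacent bins on chromosome IV also belonged to the list with less small RNA without HRDE-1. Both lie within the span of Y54G2A.12 but hold none of its exons. IV:2779001-2780000, whose exons belong to the pseudogene WBGene00044486, had 53.7, 45.5 and 112 RPKM at F20, against 24.8, 21.1 and 34.5 RPKM in the early libraries. The F20 values lay above all early values, and the difference was 1.17 ± 0.24 (SE). IV:2778001-2779000, which is marked GRH and holds exons of Y54G2A.72, had 52.7, 60.9 and 151 RPKM at F20, against 25.3, 28.9 and 36.1 RPKM in the early libraries, a difference of 1.27 ± 0.26. The groups did not overlap there either. Both bins were chosen for a small p and a single direction, which favours separated groups. The share of all tested bins with such separation is not given here, so these and later cases are descriptions only.

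The locus lay at 7.4, 35.4 and 15 RPKM in the mutants and at 65.8, 134 and 107 RPKM in never mutant animals in the second of these bins, so all 3 F20 libraries were nearer to the never mutant level than their early counterparts. The bins on either side did not differ in one direction in all 3 pairs, with differences of 0.37 ± 0.33 and 0.35 ± 0.41 (SE). Of these, IV:2780001-2781000 also belonged to the list with less small RNA without HRDE-1. IV:2777001-2778000 had 15.4, 23.8 and 22.1 RPKM at F20, against 14.7, 7.87 and 23.9 RPKM in the early libraries, and IV:2780001-2781000 had 12.5, 7.2 and 38.9 RPKM at F20, against 9.66, 14.3 and 10.8 RPKM in the early libraries.

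Other higher bins included an exonic bin of cdh-12 (III:1172001-1173000), a cadherin family gene, with 166, 3.25 and 52.8 RPKM at F20, against 46.9, 0 and 12.5 RPKM in the early libraries (1.39 ± 0.30). The groups overlapped, since background set the level more than generation did. A GRTS bin near the end of chromosome V (V:20297001-20298000), where gene names were withheld because bins and annotation did not line up, had 203, 117 and 160 RPKM at F20, against 113.2, 69.3 and 85.3 RPKM in the early libraries. There all F20 values exceeded all early ones, and the difference of 0.80 ± 0.16 was nearly equal in the backgrounds, at 0.82, 0.72 and 0.87. The remaining 4 were a second bin of that region (V:20186001-20187000, 1.01), a pseudogene bin on chromosome II (II:2048001-2049000, 0.83), the bin shared by ckk-1, sdz-21 and C05H8.4 (III:5654001-5655000, 0.94) and that of the heme transporter family gene hrg-6 (IV:11032001-11033000, 1.32). hrg-6 rested on very low values, with 9.77, 9.79 and 22.9 RPKM at F20, against 0.04, 0 and 10.6 RPKM in the early libraries, where 3 reads are worth up to 9.03 RPKM.

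Of the 8 lower bins, that of eat-16 (I:9724001-9725000), a regulator of G protein signalling, had 18.3, 0.01 and 13.7 RPKM at F20, against 69.0, 9.04 and 44.6 RPKM in the early libraries. The difference was -1.52 ± 0.27, of like size in the 3 pairs at -1.67, -1.49 and -1.40, while the groups overlapped because set-32(ok1457) was low throughout. ccb-1 (I:3642001-3643000), a calcium channel beta subunit gene, had 39.5, 3.25 and 32.01 RPKM at F20, against 81.3, 18.1 and 89.2 RPKM in the early libraries (-1.26 ± 0.25). The others were ubr-5 (-1.64), F23H11.2 (-1.25), the bin of rpc-2 and hach-1 (-1.16), C46F11.6 (-1.58) and a GRTS bin without a named gene (IV:8324001-8325000, -1.26). That GRTS bin belonged to the list with less small RNA without HRDE-1 and so went against its direction. At F20 ubr-5 had 4.89, 0 and 0.02 RPKM and C46F11.6 had 0.21, 0.1 and 2.41 RPKM. Their differences therefore depend on the pseudocount. With pseudocounts of 1 and 20 they were -3.09 and -0.685 for ubr-5, and -3.01 and -0.645 for C46F11.6.

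The last of the 8 lower bins was at Y47A7.2 on chromosome V (V:5196001-5197000, marked GRTS). It belonged to neither list, and had 0.03, 0 and 0.06 RPKM at F20, against 5.52, 33.8 and 26.3 RPKM in the early libraries. Every F20 value was thus below that of 1 read, and the fitted difference of -2.22 ± 0.43 depends on the pseudocount. The next bin but one of the gene, V:5198001-5199000, was not among the 8 but belonged to the list with more small RNA without HRDE-1. It had 4.89, 13.01 and 4.59 RPKM at F20, against 8.28, 54.2 and 52.95 RPKM in the early libraries, with 181, 85.2 and 99.4 RPKM in the mutants and 8.7, 17.16 and 0.01 RPKM in never mutant animals. Wild type was near the never mutant level already at F5, and both set-32 backgrounds were near it at F20 only. All 4 bins of the gene averaged lower at F20, by -0.81, -2.22, -1.35 and -1.58 along the gene.

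The met-2 set-25 pair, outside the fit, did not always share these directions. It was higher at F20 in 6 of the 8 higher bins and lower in 2, and of the 8 lower bins it was lower in 4, higher in 3 and level in 1. It had 197 RPKM at F20 and 466 RPKM at F5 in the cdh-12 bin. With this pair added to the fit, the difference was 0.74 for cdh-12 and -0.67 for IV:8324001-8325000, and that of eat-16 was also smaller. In its F5 library 1 read was worth 6.3 RPKM, so low values there rest on very few reads.

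**Figure D3:**
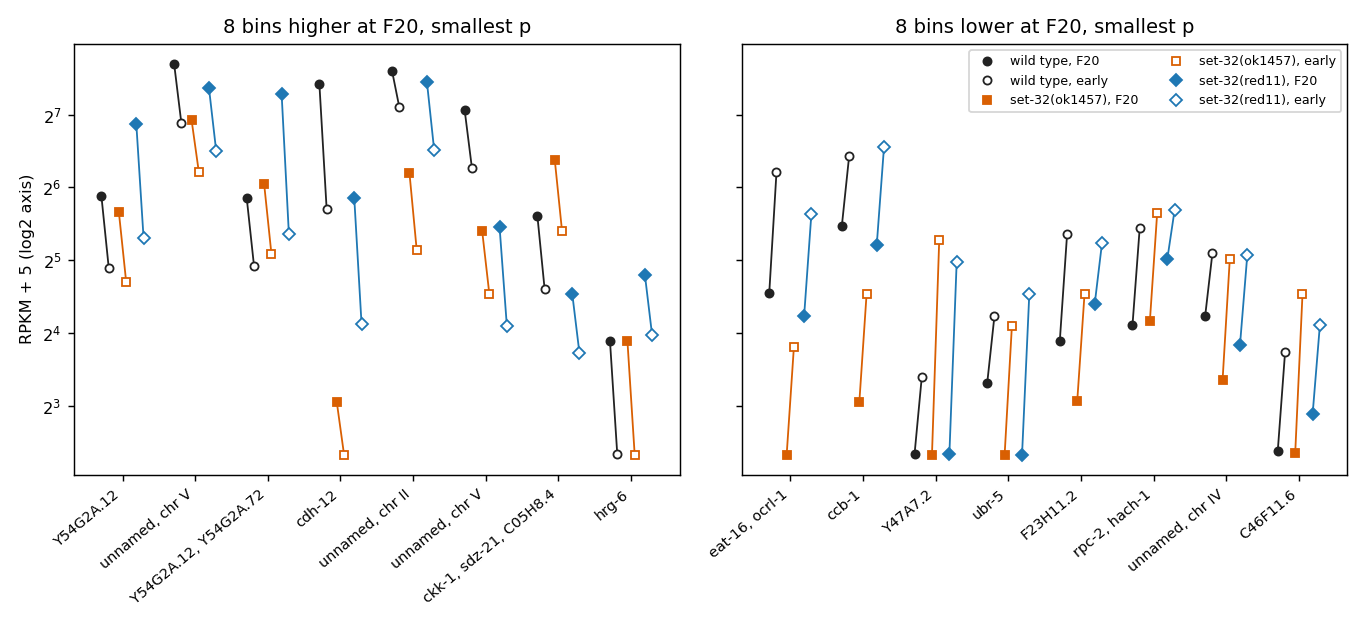
RPKM + 5 on a log2 axis in the 16 named bins, filled symbols for F20 and open symbols for early libraries, with 1 symbol per background. Higher bins are in the left panel and lower ones in the right, and in bins such as that of eat-16 the backgrounds differ by more than the generations.

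The eri-6 locus on chromosome I (I:4457001-4470000, 13 bins) differed in opposite directions along its length. eri-6 codes for part of a helicase of the ERGO-1 small RNA pathway, and sosi-1 is a small gene lying within it. Over sosi-1 (I:4462001-4463000) the libraries had 193, 19.7 and 128 RPKM at F20, against 175, 6.03 and 2.03 RPKM in the early libraries (1.85 ± 0.63, unadjusted p = 0.0164 by limma). The early set-32(red11) value is that of 1 read, and the never mutant level of that background was 257 RPKM. In the adjoining bin I:4461001-4462000 the values were 68.4, 6.50 and 77.8 RPKM at F20, against 44.2, 3.02 and 10.1 RPKM in the early libraries. set-32(ok1457) stayed far below its never mutant level of 254 and 129 RPKM in these bins. Another bin with sosi-1 exons, I:4460001-4461000, had 46.4, 30.9 and 35.4 RPKM at F20, against 16.6, 31.7 and 35.2 RPKM in the early libraries. There the wild-type pair was higher at F20 and both set-32 pairs were level.

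Toward the other end of eri-6, I:4466001-4467000 had 443, 400.5 and 477 RPKM at F20, against 399.7, 176 and 307 RPKM in the early libraries (0.65 ± 0.18). All F20 values there lay above all early values. T01A4.9 and linc-104 in the next bin (I:4467001-4468000) had 77.1, 16.3 and 101 RPKM at F20, against 53.4, 9.04 and 26.01 RPKM in the early libraries. In between, I:4464001-4465000 and I:4465001-4466000 were flat, with differences of 0.14 ± 0.10 and 0.04 ± 0.10. At the start of the gene, I:4458001-4459000 was lower at F20, with 63.5, 156 and 107 RPKM, against 74.5, 175 and 316 RPKM in the early libraries (-0.63 ± 0.26). All 3 mutants had more small RNA in that bin than never mutant animals, with 245, 119.3 and 249 RPKM against 43.5, 51.5 and 51.4 RPKM. In set-32(red11) both ends of the locus thus lay closer to the never mutant level at F20 than at F5.

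**Figure D4:**
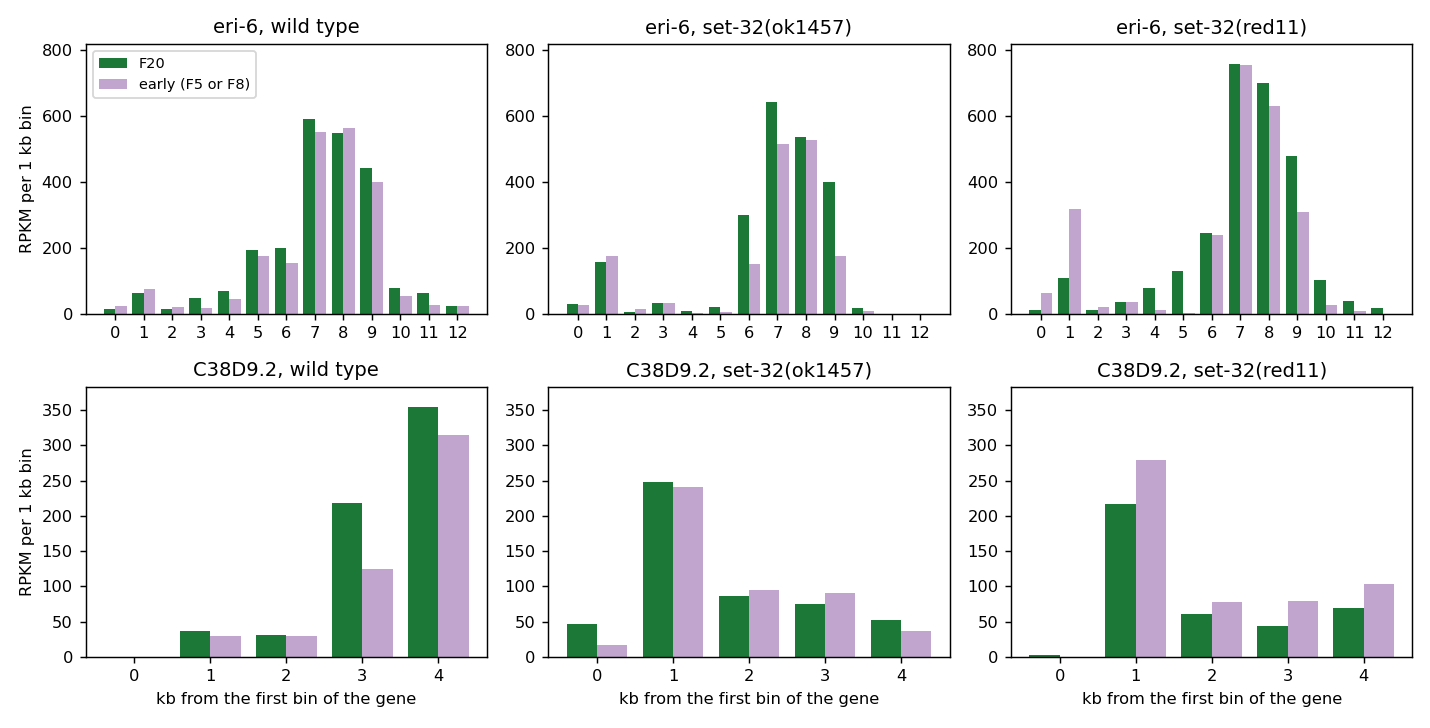
RPKM per 1000 bp bin along eri-6 with sosi-1 and along C38D9.2, F20 beside early, in each background, by position in kb from the first bin. In the sosi-1 bin I:4462001-4463000 the set-32(red11) bars are at 128 RPKM at F20 and 2.03 RPKM early, and those of set-32(ok1457) are at 19.7 and 6.03 RPKM.

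The long-studied nuclear RNAi targets did not share these differences as a list. F15D4.5 (II:13246001-13247000) had 586, 48.96 and 57.2 RPKM at F20, against 513, 57.4 and 89.8 RPKM in the early libraries, a difference of -0.21 ± 0.19. The set-32 libraries stayed at a small share of the never mutant levels of 694, 1227 and 964 RPKM. They also lay below their own mutants, which had 90.7, 526 and 183.96 RPKM in the same order. Another bin of the gene, II:13245001-13246000, was higher at F20 in every pair. It had 38.3, 184.5 and 134.5 RPKM, against 34.8, 106.5 and 114.3 RPKM in the early libraries (0.37 ± 0.20). II:13247001-13248000 was flat (-0.035 ± 0.12), and the mean difference over the whole gene was 0.08. In the 3' bin of C38D9.2 (V:17571001-17572000, where the bins could not be matched to gene names with certainty), the values were 354, 52.03 and 68.6 RPKM at F20, against 315, 36.2 and 103 RPKM in the early libraries (0.03 ± 0.22). In a bin near its other end (V:17568001-17569000) the set-32 libraries were the high ones, with 36.3, 247 and 216 RPKM at F20, against 29.1, 240.5 and 279 RPKM in the early libraries. Neither end of C38D9.2 differed between generations beyond the spread of the pairs.

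bath-45 had a bin (II:13123001-13124000) with 853, 589 and 637 RPKM at F20, against 871, 389 and 490.4 RPKM in the early libraries (0.31 ± 0.13, unadjusted p = 0.0367, adjusted p = 0.953 by limma). The wild-type pair was level and both set-32 pairs were higher. Of the 23 tested bins of the nuclear RNAi target list, 3 (13.04%) were higher and 4 (17.4%) lower in all 3 backgrounds, with a median of -0.04. F07B7.1 and F07B7.2, repeated copies whose reads cannot be assigned to 1 copy, averaged 131, 16.8 and 29.8 RPKM and 88.6, 52.3 and 57.2 RPKM per bin at F20, against 139, 22.6 and 25.5 RPKM and 83.7, 58.1 and 63.8 RPKM in the early libraries. F15D4.6 averaged 75.8, 13 and 12.3 RPKM at F20, against 92.5, 10.6 and 22.8 RPKM in the early libraries.

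ERGO-1 targets, silenced through 26G-RNAs that feed secondary siRNA production, had a median of 0.10 over 20 tested bins, with 4 (20%) higher and 1 (5%) lower in all 3 backgrounds. By the mean difference over the pairs, 8 of 10 of these genes were higher at F20 and 2 lower. The 8 included T02G6.4, which had no tested bin, and F52D2.6 and H09G03.1, at 0.019 and 0.045. No share over all genes was taken for this or the later counts of genes. The median of the tested bins was -0.055 in wild type, 0.315 in set-32(ok1457) and 0.309 in set-32(red11). In the met-2 set-25 pair it was -0.404. C44B11.6 had 747, 736 and 690 RPKM at F20, against 701, 618 and 481 RPKM in the early libraries. Y17D7B.4 had 425, 358 and 441 RPKM at F20, against 285, 327 and 237 RPKM in the early libraries. F20 exceeded early in each pair of both genes, and for Y17D7B.4 the groups did not overlap. Y37E11B.2 had 337, 364 and 369 RPKM at F20, against 368, 304 and 254 RPKM in the early libraries. E01G4.5 had 302, 83.7 and 241 RPKM at F20, against 392, 48.97 and 116 RPKM in the early libraries. At both, the set-32 pairs were higher at F20 and the wild-type pair lower. C08F11.7, chosen after its values were seen, had 59.04, 9.66 and 14.2 RPKM at F20, against 15.9, 3.06 and 11.2 RPKM in the early libraries.

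RNAi factors, the genes that make or use small RNAs, had a median of -0.07 over 157 tested bins, with 16 (10.2%) higher and 23 (14.6%) lower in all 3. By the mean difference 11 of 33 genes were higher and 22 lower. eri-6, the member with most small RNA, averaged 180, 164 and 208 RPKM per bin over its whole length at F20, against 163, 126 and 185 RPKM in the early libraries. prg-1, the Piwi gene, averaged 126, 117 and 126 RPKM at F20, against 124.9, 144 and 145 RPKM in the early libraries. rde-11 averaged 144, 114 and 143 RPKM at F20, against 148, 112 and 145 RPKM in the early libraries, and morc-1 91.1, 74.0 and 78.3 RPKM at F20, against 83.2, 78.4 and 98.8 RPKM in the early libraries.

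Small RNA over intestine markers differed in opposite directions in the set-32 alleles. The marker bins summed to 4894, 7587 and 8446 RPKM at F20, against 4564, 9131 and 5370 RPKM in the early libraries, a difference of 0.10, -0.27 and 0.65 on the log2 scale. Most of it was over the vitellogenin yolk protein genes. vit-6 averaged 253, 366 and 406 RPKM per bin at F20, against 224, 445 and 254 RPKM in the early libraries. The next in level, vit-2, vit-5 and vit-4, were likewise lower in set-32(ok1457), by -0.26, -0.14 and -0.21, and higher in set-32(red11), by 0.50, 0.79 and 0.76. By their mean difference, 9 of 13 intestine genes were higher and 4 lower at F20. The transcription factor gene elt-2 and the esterase gene ges-1, which define the tissue, averaged 0.97, 0.03 and 0.23 RPKM and 0.03, 2.17 and 0.41 RPKM per bin at F20, against 0.1, 0.06 and 0.8 RPKM and 0.59, 0.08 and 0.52 RPKM in the early libraries, and no bin of either passed the filter on low values. In whole animals, fewer cells of a tissue and less RNA per cell cannot be told apart. Of 41 tested intestine bins, 65.9, 14.6 and 92.7% were higher at F20 in the single backgrounds, where 49.2, 51.6 and 42.5% of all tested bins were.

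Muscle markers summed to 578, 896 and 930.0 RPKM at F20, against 593, 990.2 and 597 RPKM in the early libraries. unc-54, a muscle myosin gene and the highest of the list, averaged 21.99, 46.98 and 39.0 RPKM at F20, against 19.6, 43.3 and 21.7 RPKM in the early libraries, higher in every pair. unc-27, unc-15 and lev-11 differed by -0.52, -0.27 and -0.33 in set-32(ok1457) and by 0.04, 0.79 and 0.22 in set-32(red11). Hypodermis markers summed to 916.5, 1085 and 1243 RPKM at F20, against 741, 1541 and 1008 RPKM in the early libraries, a difference of 0.31, -0.51 and 0.30, so wild type and set-32(red11) were alike. The cuticle collagen genes col-140, col-124, col-119 and col-19 differed by 0.42, 0.41, -0.01 and 0.65 in wild type, by -0.46, -0.55, -0.28 and -0.34 in set-32(ok1457) and by 0.30, 0.53, 0.07 and 0.44 in set-32(red11).

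Neuron and gonad sheath markers did not follow this order. Neuron markers summed to 1143, 1035 and 1128 RPKM at F20, against 1306, 913.5 and 1179 RPKM in the early libraries, and gonad sheath markers to 81.3, 237 and 102 RPKM at F20, against 76.8, 162 and 107 RPKM in the early libraries. In set-32(red11), the pair with the largest medians at loci that depend on HRDE-1, intestine and muscle sums were thus higher at F20 by 0.65 and 0.64 and neuron and gonad sheath sums lower by -0.06 and -0.06. The part of these shifts in the differences at HRDE-1 loci was not tested.

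Germline gene lists differed in direction. Sperm genes, mostly major sperm protein and ssq genes, summed to 1424, 1361 and 1750.2 RPKM at F20, against 989, 1594 and 1251 RPKM in the early libraries. ssq-2 averaged 106, 99.9 and 167 RPKM at F20, against 73.4, 106 and 117 RPKM in the early libraries. ssq-1 averaged 105.65, 68.6 and 127 RPKM at F20, against 50.2, 87.3 and 94.6 RPKM in the early libraries. ssq-4 and ssq-3 differed by 0.48 and 0.47 in wild type, by -0.20 and -0.46 in set-32(ok1457) and by 0.62 and 0.16 in set-32(red11). Over 48 tested sperm gene bins the median was 0.18, with 0.40, -0.14 and 0.36 in the backgrounds, so wild type and set-32(red11) shared a direction that set-32(ok1457) did not. Oocyte and germline genes had a median of -0.12 over 79 tested bins, with 6 (7.59%) higher and 14 (17.7%) lower in all 3. glh-1, a Vasa-related helicase gene of the germ granules, averaged 83.3, 83.4 and 87.5 RPKM at F20, against 76.8, 89.7 and 97.3 RPKM in the early libraries. The mean difference was -0.19 for cpg-2, -0.17 for pgl-1 and 0.09 for cey-2.

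Of the gene lists, histone genes had the largest share of bins lower in all 3 backgrounds, at 22 of 71 tested bins (30.99%), against 14% of all tested bins, with 2 (2.82%) higher. The median was -0.17, and it came mainly from wild type at -0.40, with -0.09 and -0.06 in the set-32 backgrounds. Histone bins summed to 2770, 2900 and 3822 RPKM at F20, against 3444, 3108 and 3848 RPKM in the early libraries, and the exact sign-flip test gave p = 0.25, the smallest possible. Of the 4 genes with most small RNA, his-24 averaged 369, 424 and 448 RPKM per bin at F20, against 360.3, 440 and 471 RPKM in the early libraries, and the mean differences were -0.03 for his-24, 0.04 for his-46, 0.07 for his-60 and -0.16 for his-31. By the mean difference 40 of 50 histone genes were lower and 10 higher. Histone genes are near-identical copies, so single copies are uncertain and the bins are not independent of each other.

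Other classes of small RNA were close between the generations. The 21U-RNA clusters of chromosome IV, the source of Piwi-bound RNAs, summed to 57900, 55539 and 56095 RPKM at F20, against 58853, 51492 and 57525 RPKM in the early libraries, with a median of 0.02 over 2747 tested bins. Bins over microRNA genes had a median of 0.02 over 156 tested, tRNA genes 0.04 over 508, snRNA genes 0.04 over 116 and snoRNA genes -0.02 over 213. Bins over rRNA genes, repeated copies of the 5S gene, had medians of 0.02, -0.04 and 0.28 in the backgrounds. Heat and unfolded protein stress genes had a median of -0.14 over 15 tested bins, and ribosomal protein genes -0.11 over 129. The chromosomes lay between -0.06 on chromosome III and 0.02 on chromosome X.

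**Figure D5:**
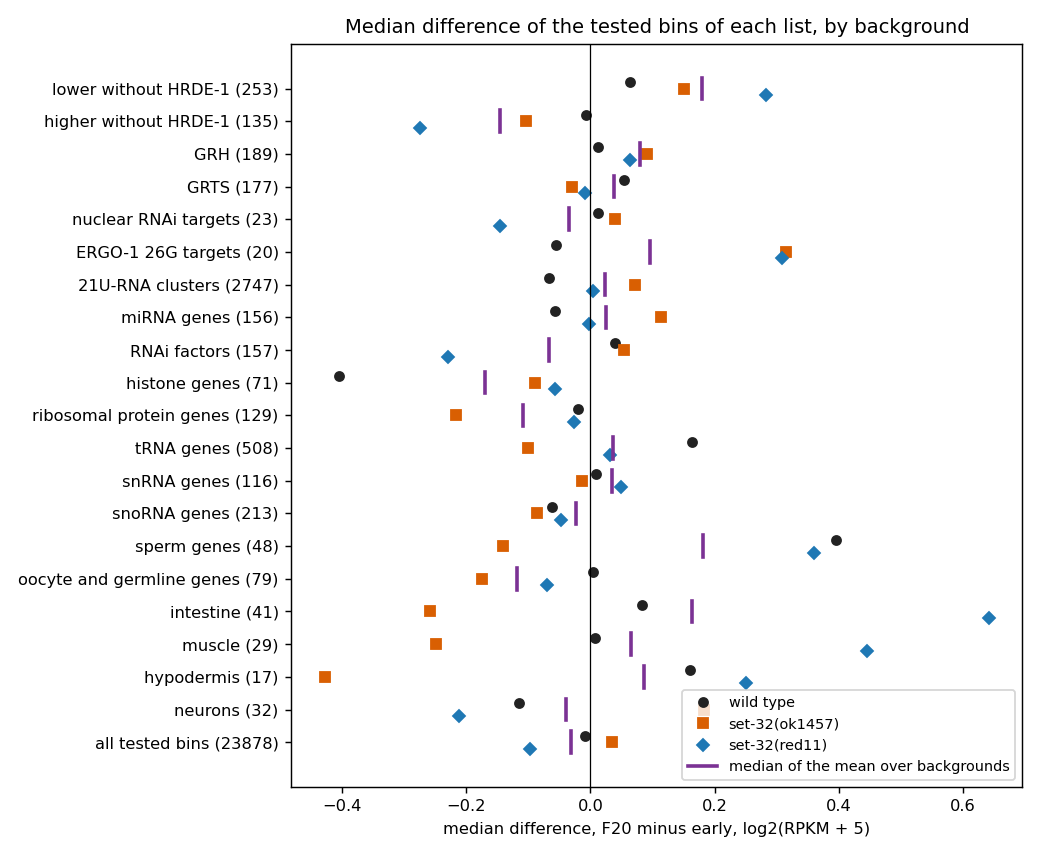
Median F20 minus early difference in log2(RPKM + 5) for each list of bins, 1 symbol per background, with all tested bins for reference. The list with less small RNA without HRDE-1 lies at 0.06, 0.15 and 0.28, the list with more at -0.01, -0.10 and -0.27, and the intestine list is spread from -0.26 in set-32(ok1457) to 0.64 in set-32(red11).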

How the data were processed

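Small RNAs of young adult hermaphrodites were isolated with a mirVana kit and cloned without need of a 5′ monophosphate, per the labels' protocols, which takes in triphosphorylated secondary siRNAs. The authors deposited RPKM values in 100257 genome bins of 1000 bp, together with yes/no marks named GRH, GRTS and misanotated. Per the submitters' processing notes, reads were handled with Bowtie 0.12.7. Genome build, per-million denominator and placement of reads with several matches: none of them is given in the sources used here. Reads of both strands and all lengths add up in a bin.

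Groups came from the sample titles and columns from the library names in the descriptions. Another 27 library columns matched no sample and were not used. Bins were named by overlapping genes of the WBcel235 annotation, piRNA genes apart. In 96 of 100 windows the best match of values to annotation lay at no shift. The other 4 were on chromosome IV at 15 and 16 Mb and on chromosome V at 18 and 20 Mb, and no bin on chromosome V beyond 19 Mb was named. Depth was read from the spacing of low values. Of these, 64.6 to 71.3% lay within 0.05 of a whole number of reads, too few to recover counts.

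Bins averaging 5 RPKM or more across the 6 libraries were fitted as log2(RPKM + 5) with limma 3.58.1 (eBayes with trend, R 4.3.3), two-sided, with background as a block and Benjamini-Hochberg adjustment over all tested bins. A fold on this scale understates changes of low bins. Background pairs the samples. Deviations of F20 and early libraries from the group means correlated at 0.42 in wild type, 0.43 in set-32(ok1457) and 0.22 in set-32(red11). Between backgrounds they correlated below 0, to which centring on the group means leads on balance, so those values add no support. Bins dependent on HRDE-1 were called by a like fit of mutant against never mutant libraries in 4 backgrounds. Gene levels are means over the bins a gene overlaps. As no bin was called, the 8 bins in each direction with the smallest unadjusted p and a single direction in all 3 pairs were named, and in gene lists described gene by gene the 4 members with the highest mean level; other members of the nuclear RNAi target list, C08F11.7, elt-2 and ges-1 were added after their values were seen. Members, lists and tests were chosen with earlier results of these data known. Other pseudocounts, filters, scalings and left-out pairs were tried. No sequence of the loci was used here.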

Additional observations from a re-analysis of the deposited data

How the results depend on the processing

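Under each of 13 alternatives (pseudocounts of 1 and 20, no filter, a mean of at least 20 RPKM, centring, equal sums, no replicate block, each pair left out, the met-2 set-25 pair added, misanotated bins left out, and eBayes without trend) limma called 0 bins higher and 0 lower. Without the replicate block 175 bins had a higher and 420 a lower level with unadjusted p below 0.05, against 383 and 781 with it. The smallest adjusted p was 0.31 without the wild-type pair and 0.799 to 1.0 under the other alternatives. The set-32 by generation contrast called 0 bins under its 3 alternatives. The 16 named bins kept their direction in 201 of 201 alternative values. They were chosen for a single direction in all 3 pairs, so most alternatives could not reverse it and the count is no support. With pseudocounts of 1 and 20 the V:5196001-5197000 bin of Y47A7.2 stood at -4.16 and -0.99, against -2.22. The GRTS sum differed by 0.075 when libraries were rescaled to equal sums, against 0.042 as deposited. Rescaling takes out the difference between library totals, which averaged -0.033 over the pairs. Lists of bins dependent on HRDE-1 were also called from the 3 matched backgrounds and from wild type with met-2 set-25, alternatives chosen after seeing the data. For the list with less small RNA without HRDE-1, the share higher at F20 in all 3 backgrounds was then 30.6 and 27.5%, against 28.5%. For the list with more, the share lower in all 3 was 20% and 16.7%, against 18.5%. Leaving out each pair gave medians of 0.13 to 0.25 for the list with less small RNA without HRDE-1 and -0.24 to -0.10 for the list with more. Low depth limits all bins near 3 reads, which were worth 6.09 to 9.75 RPKM.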
